A study of Homo sapiens with 2 samples.

Results

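The splicing factors described here are the genes whose symbols begin with HNRNP, SRSF, SF3A, SF3B, SNRNP, SNRP, U2AF or PRPF and hold no hyphen. The rule reads only the name of a gene, and it takes 77 of the 12007 gene symbols listed. Of these 77, 76 had a mean level of at least 1 FPKM over both libraries, as did 10702 of all symbols. FPKM counts sequenced fragments per kilobase of gene, scaled to the fragments of the whole library, so levels can be set side by side between genes.

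The study sequenced poly(A) RNA of ACHN cells, an established human renal cell carcinoma line, in 1 library per condition. The shKIAA1429 library came from cells infected with a lentivirus carrying a short hairpin RNA against KIAA1429, also called VIRMA, a scaffold subunit of the complex that writes N6-methyladenosine (m6A) on RNA. The shNC library came from cells infected with the control lentivirus, and both populations were selected with puromycin. The label calls the first a knockout, whereas the methods describe a knockdown with 2 hairpins made, and which of them was sequenced is not named. With 1 library per condition there is no replicate error and no test, so every difference given here describes 2 libraries and may lie within the spread between cultures. The depth cannot be read from FPKM, and no counting interval is given.

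The targeted gene VIRMA had 3.92 FPKM in shNC and 3.22 FPKM in shKIAA1429, a remaining level of 82.1%. The log2 change of VIRMA was −0.22, and −0.10 after rescaling each library to the same sum. It was −0.27 with mitochondrial genes left out of that sum, and −0.28 relative to the median gene. VIRMA was thus lower on each of these scales. The housekeeping genes ACTB and GAPDH stood at 84.1% and 80.7% of the control, with VIRMA between them, so these libraries alone do not settle how far its level was lower. The paper reports reduced KIAA1429 mRNA and protein in its knockdown ACHN cells by RT-qPCR and western blot. The 10 markers examined for renal carcinoma cells, which include VIM and CDH2 and so are not all epithelial, were all listed. Their summed levels were 1064 FPKM in shNC and 903 FPKM in shKIAA1429. They went both ways, with 4 higher, such as PAX8 at 64.7 and 104.4 FPKM, and 6 lower, such as VIM at 368 and 228 FPKM. Among markers of other cell types, 1 of 3 for leukocytes was listed, CD68 at 3.87 and 2.06 FPKM, without PTPRC and CD3E. For fibroblasts 2 of 4 were listed, COL1A1 and PDGFRB, with a sum of 1.75 and 2.60 FPKM, and those of endothelium, hepatocytes and neurons were not listed. Mitochondrial genes held 42.2% of the summed FPKM in shNC and 34.6% in shKIAA1429. In bulk RNA, fewer cells of a type and less RNA per cell cannot be told apart.

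Introns are removed by the spliceosome, which assembles from small nuclear ribonucleoproteins (snRNPs). U1 reads the 5′ splice site, U2AF and U2 read the 3′ splice site and the branch point, and the U4/U6.U5 tri-snRNP brings the parts that become the catalytic core. Each snRNP except U6 carries a ring of Sm proteins. SR proteins bind exons and mostly favour splice site use, while hnRNP proteins coat the nascent RNA and often oppose it, and several hnRNPs have been described as readers of m6A.

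Several members are close copies of each other, and reads that fall in shared stretches can be placed on either copy. The following coding stretches, taken from GENCODE 29 on GRCh38, are shown because the members that differed most between the libraries are both intronless copies within their coding sequence. In capitals are the bases that differ within each pair, and the stretches are those with the most differences inside 1 exon. The first pair lies at coding bases 98 to 127, at chr5:179621368-179621397 on the minus strand (exon 2 of 12 of HNRNPH1) and at chrX:101412086-101412115 on the plus strand (exon 2 of 2 of HNRNPH2). The second pair lies at coding bases 195 to 224, at chr12:54281857-54281886 on the plus strand (exon 3 of 11 of HNRNPA1) and at chr13:52642687-52642716 on the plus strand (exon 1 of 1 of HNRNPA1L2).
HNRNPH1: aCtgcaaAatTcaaaatggGGcTCAaggta
HNRNPH2: aTtgcaaGatCcaaaatggCAcATCaggta
HNRNPA1: ggaggaggtggatgcagctatgaatGcaaG
HNRNPA1L2: ggaggaggtggatgcagctatgaatAcaaC

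The HNRNPH1 and HNRNPH2 stretches differed at 8 of 30 bases, and their whole coding sequences were 87.2% identical over 1343 aligned bases. None of the 1198 windows of 150 bases, the read length, along the HNRNPH2 coding sequence stood unchanged in that of HNRNPH1 (0 of 1198). The A1 pair was much closer: its stretches differed at 2 of 30 bases and the coding sequences at 15 of 960 bases, an identity of 98.4%. Here 25 of 811 windows of HNRNPA1L2, or 3.08%, stood unchanged in HNRNPA1. U2AF1 and U2AF1L5 were identical over all 720 coding bases, so the division of reads between them is uncertain.

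Changes are given as the log2 of (FPKM + 1) in shKIAA1429 over (FPKM + 1) in shNC, which understates the change of low genes. A limit of 1.5 on this scale was used, whereas the study's own limit was set on fold changes from a count model together with a p-value. One member lay above it, 1 of 76 against 0.383% of all genes, and that was HNRNPH2. One lay below it, 1 of 76 against 0.252% of all genes, and that was HNRNPA1L2. Past a limit of 1, the same single member was higher, against 1.61% of all genes. In the other direction 3 members were lower by more than 1 (3.95%, against 0.897% of all genes), namely HNRNPA1L2, SNRPA and SNRPD2.

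Between 0.5 below and 0.5 above lay 68 of the 76 members. The 4 that were higher by more than 0.5 (5.26%, against 9.9% of all genes) were HNRNPH2, PRPF38B, SRSF4 and PRPF4B. The 4 that were lower by more than 0.5 (5.26%, against 6.12% of all genes) were HNRNPA1L2, SNRPA, SNRPD2 and HNRNPC. After each library was rescaled to the same sum over the listed genes, this split became 17 higher and 3 lower. The median of all genes then moved up by 0.18. That sum includes mitochondrial genes, as do the equal sums named below. With mitochondrial genes left out of the sum, the split became 5 higher and 4 lower. Taken relative to the median gene, it became 4 higher and 7 lower. The shares of all genes past 0.5 were not computed on these other scales, so these counts show nothing particular to the members. The median change of the members was 0.08 with an interquartile range of 0.35, beside 0.06 and 0.42 for all genes. Members higher at all numbered 49 (64.5%, against 57.3% of all genes).

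**Figure D1:**
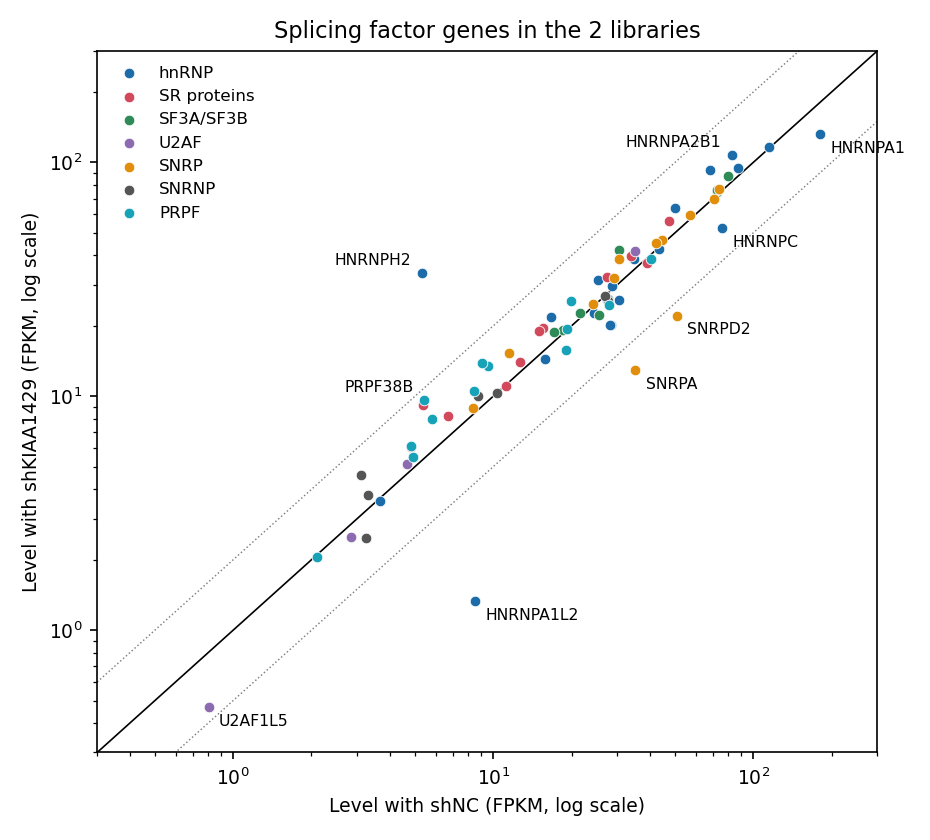
Levels of the 77 splicing factors in the shNC library (horizontal axis) and the shKIAA1429 library (vertical axis), both as FPKM on log scales, with 1 point per gene coloured by family, a solid line of equal levels and dotted lines at a 2-fold difference. Most points lie along the solid line, while HNRNPH2 stands above the dotted lines and HNRNPA1L2, SNRPA and SNRPD2 stand below them.

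As a group these are abundant transcripts. Their median rank by mean level was at the 89.1 percentile of all 12007 listed symbols, and 68 of the 77 lay above their median. Their levels summed to 2345 FPKM in shNC and 2410 FPKM in shKIAA1429, or 1.43% and 1.48% of the sum without mitochondrial genes. In shNC, 14 members were at 50 FPKM or more, 41 between 10 and 50, and 22 below 10. In shKIAA1429 these classes held 14, 45 and 18. HNRNPA1 was the most abundant in both libraries, and leaving it out changed the sums to 2164 and 2278 FPKM. No member was at 0 in either library. SRSF12 and HNRNPCL1, which the name rule would also take, are not among the listed genes and were not analysed here.

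The hnRNP family was the most spread of the 7 families. Its 21 members had a median change of −0.03 and an interquartile range of 0.52, with 10 higher (47.6%, against 57.3% of all genes) and 11 lower. The sign of that median was not the same in every setting. It was 0.15 after rescaling to equal sums, where the median of all genes was 0.24. With mitochondrial genes left out of the sum it was −0.03, and with a mean of at least 5 FPKM it was 0.01. Their summed level was 980 FPKM in shNC and 989 FPKM in shKIAA1429, so opposite differences of single members nearly cancelled.

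HNRNPH2 encodes hnRNP H2, which binds runs of G and regulates exon use together with its relatives hnRNP H1, hnRNP H3 and hnRNP F. The gene lies on chromosome X, 100663283 to 100669121 on the plus strand (GRCh37). It was at 5.31 FPKM in shNC and 33.5 FPKM in shKIAA1429, a log2 change of 2.45 that ranked 8 from the top of 10702 genes. Its relatives differed far less. HNRNPH1 was at 16.7 and 21.7 FPKM (0.37), HNRNPH3 at 34.9 and 38.5 FPKM (0.14), and HNRNPF, the most abundant of the 4, at 115 and 116 FPKM (0.01).

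The make-up of the H and F group therefore differed between the libraries. HNRNPH2 supplied 3.09% of the summed FPKM of the 4 genes in shNC and 15.96% in shKIAA1429, while the part of HNRNPF was 67.0% and 55.4%. HNRNPH2 was below HNRNPH1 in shNC, at a ratio of 0.319, and above it in shKIAA1429, at a ratio of 1.54. The sum of HNRNPH1 and HNRNPH2, which depends less on how reads were divided between these copies, was 21.96 and 55.3 FPKM, or 2.52-fold. For all 4 genes the sum was 172 and 210 FPKM.

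HNRNPH2 lies downstream of the ribosomal protein gene RPL36A, and a read-through gene, RPL36A-HNRNPH2, is listed over both. The read-through gene was at 8.29 FPKM in shNC and 21.1 FPKM in shKIAA1429 (1.25), and RPL36A alone was at 136 and 124 FPKM (−0.13). The read-through gene and HNRNPH2 were thus higher together, while their upstream neighbour was slightly lower. Reads where the read-through gene and HNRNPH2 overlap can be placed on either, so their higher levels are not separate observations. Added together, HNRNPH2 and the read-through gene were at 13.6 and 54.6 FPKM (1.93), still above the limit, whereas RPL36A and the read-through gene added up to 144.0 and 145.1 FPKM. GENCODE 29 gives HNRNPH2 a single transcript, against 50 for HNRNPH1.

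HNRNPA1L2, an intronless copy of HNRNPA1, lies on chromosome 13, 53214921 to 53217931 on the plus strand (GRCh37). It was at 8.48 FPKM in shNC and 1.33 FPKM in shKIAA1429, a log2 change of −2.03 that ranked 10 from the bottom. HNRNPA1 encodes hnRNP A1, an abundant silencer of splice sites, and was at 181 FPKM in shNC and 132 FPKM in shKIAA1429 (−0.45). Both copies were thus lower in shKIAA1429. Their sum was 189 and 133 FPKM, a ratio of 0.703, and was set almost wholly by HNRNPA1. GENCODE 29 also names 74 pseudogenes after HNRNPA1, which were not analysed here, so the division of reads among these copies is uncertain.

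Other A and B hnRNPs were higher where HNRNPA1 was lower. HNRNPA2B1, which encodes an hnRNP described as a nuclear m6A reader, was at 82.5 FPKM in shNC and 107 FPKM in shKIAA1429 (0.38). HNRNPA3 was at 50.1 and 63.6 FPKM (0.34), and HNRNPAB at 68.2 and 92.6 FPKM (0.44). HNRNPA0 was nearly level, at 15.8 and 14.4 FPKM (−0.13). The ratio of HNRNPA1 to HNRNPA2B1 went from 2.19 in shNC to 1.23 in shKIAA1429, and the sum of HNRNPA1, HNRNPA2B1 and HNRNPA3 was 314 and 303 FPKM.

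HNRNPC encodes hnRNP C, which binds uridine tracts and has been described as reading m6A through the RNA structure that the mark loosens. It was at 75.7 FPKM in shNC and 52.2 FPKM in shKIAA1429 (−0.53), and its place among the members by level moved from 6 to 14. HNRNPD, whose product binds AU-rich elements, was at 28.2 and 20.2 FPKM (−0.46), and HNRNPM at 28.4 and 20.2 FPKM (−0.47). These 3 genes and HNRNPA1 formed the lower end of the family after HNRNPA1L2. HNRNPA2B1 and HNRNPC, both described as m6A readers, thus differed in opposite directions, and the ratio of HNRNPC to HNRNPA2B1 was 0.917 in shNC and 0.486 in shKIAA1429.

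The remaining hnRNPs lay between −0.22 and 0.30. HNRNPDL, a relative of HNRNPD, was at 25.3 FPKM in shNC and 31.4 FPKM in shKIAA1429 (0.30), opposite in sign to HNRNPD. HNRNPK, which binds C-rich RNA, was at 86.9 and 94.1 FPKM (0.11). HNRNPL, which binds CA repeats, was at 27.2 and 25.9 FPKM (−0.07), and its paralogue HNRNPLL at 3.68 and 3.56 FPKM (−0.04). HNRNPU, a nuclear scaffold protein, was at 24.4 and 22.6 FPKM (−0.11). Its relatives HNRNPUL1 and HNRNPUL2 were at 43.4 and 42.5 FPKM (−0.03) and at 30.3 and 25.8 FPKM (−0.22), and HNRNPR was at 28.7 and 29.5 FPKM (0.04).

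**Figure D2:**
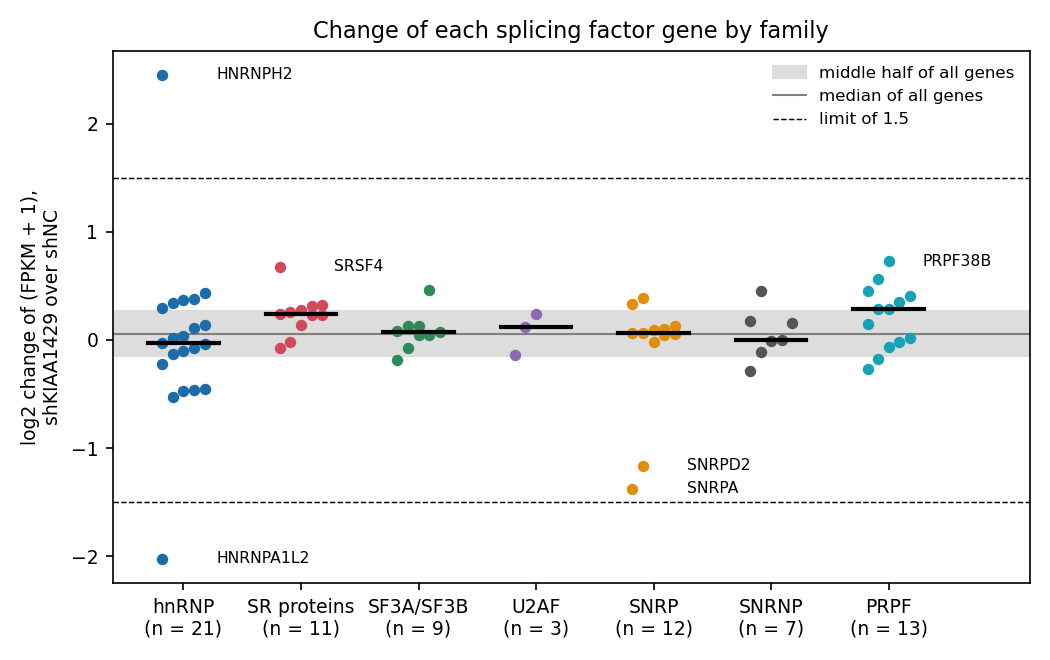
Log2 change of (FPKM + 1) in shKIAA1429 over shNC (vertical axis) for the 76 members by family (horizontal axis), with 1 point per gene, a black bar at each family's median, a grey band and line for the middle 50% and the median of all genes, and dashed lines at the limit of 1.5. The hnRNP points spread from −2.03 to 2.45, while the SR points cluster near 0.24 and most SF3 and SNRP points lie near 0.

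The SR proteins were mostly higher by a similar amount. Of the 11 SRSF genes, 9 were higher in shKIAA1429 (81.8%, against 57.3% of all genes). Their median change was 0.24 with an interquartile range of 0.12, and their summed level was 219 FPKM in shNC and 253 FPKM in shKIAA1429. The largest change was that of SRSF4, which was at 5.35 and 9.14 FPKM (0.68). SRSF1, the founding member of the family and its most abundant gene here, was at 47.5 and 56.3 FPKM (0.24). SRSF9 was the lowest by change, at 38.91 and 37.005 FPKM (−0.07), and SRSF5 was level at 11.2 and 11.1 FPKM (−0.02). After rescaling to equal sums all 11 were higher, SRSF9 included at 0.11, on a scale where 74.6% of all genes were higher.

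The other SR genes lay between 0.13 and 0.33. SRSF2, which encodes SC35, was at 15.0 FPKM in shNC and 19.1 FPKM in shKIAA1429 (0.33), and SRSF8, an expressed retrocopy with 84.7% coding identity to it, at 6.67 and 8.19 FPKM (0.26). Both copies were thus higher, and their sum was 21.7 and 27.3 FPKM. SRSF3, which shuttles to the cytoplasm with mRNA, was at 12.7 and 14.0 FPKM (0.13), and its relative SRSF7 at 27.4 and 32.2 FPKM (0.23). SRSF6 was at 33.8 and 39.9 FPKM (0.23). SRSF10, which represses splicing when dephosphorylated, was at 4.84 and 6.09 FPKM (0.28), and SRSF11 at 15.5 and 19.6 FPKM (0.32).

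The U1 snRNP held one of the lowest changes. SNRPA encodes U1 snRNP protein A, which binds a stem-loop of U1 RNA, and lies on chromosome 19, 41256542 to 41271294 on the plus strand (GRCh37). It was at 35.2 FPKM in shNC and 12.9 FPKM in shKIAA1429, a log2 change of −1.38 that ranked 35 from the bottom. The other specific U1 proteins did not share this. SNRNP70, which encodes U1-70K, was at 26.9 and 26.8 FPKM (−0.01), and SNRPC, which encodes the U1 snRNP protein C that touches the 5′ splice site, was at 74.04 and 76.8 FPKM (0.05). The ratio of SNRPA to SNRNP70 went from 1.31 to 0.483. On the opposite strand of SNRPA, the overlapping gene C19orf54 was at 3.20 and 3.26 FPKM.

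The other U1-associated factors described here were nearly level. PRPF39 was at 4.90 FPKM in shNC and 5.51 FPKM in shKIAA1429 (0.14), and PRPF40B was at 2.10 and 2.05 FPKM (−0.02).

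Within the Sm ring, 1 subunit differed from the rest. SNRPD2, which encodes SmD2, was chosen for mention after its values were seen, and lies on chromosome 19, 46190712 to 46195827 on the minus strand (GRCh37). It was at 50.8 FPKM in shNC and 22.1 FPKM in shKIAA1429, a log2 change of −1.16 that ranked 58 from the bottom. Its partner in the ring, SmD1, is encoded by SNRPD1, which was at 11.5 and 15.4 FPKM (0.39), the highest change of the ring. SNRPD3 was at 30.4 and 38.5 FPKM (0.33). The opposite-strand neighbour of SNRPD2, QPCTL, was at 1.901 and 1.57 FPKM, and that of SNRPD3, GUCD1, at 12.3 and 2.75 FPKM. Whether reads were counted by strand is not given, so part of the SNRPD3 level may belong to GUCD1, and their sum was 42.7 and 41.3 FPKM. GGT1, which overlaps SNRPD3 on the same strand, was at 8.90 and 6.41 FPKM, and SNRPD3 summed with GGT1 was at 0.19.

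SNRPE, SNRPF and SNRPG, the other core Sm genes, were nearly level. SNRPE was at 56.8 FPKM in shNC and 59.3 FPKM in shKIAA1429 (0.06), SNRPF at 44.4 and 46.4 FPKM (0.06), and SNRPG at 42.2 and 45.3 FPKM (0.10). SNRPB, which encodes SmB, was at 70.5 and 69.5 FPKM (−0.02, or 0.16 after rescaling to equal sums and −0.02 with mitochondrial genes left out of the sum). Its imprinted relative SNRPN, which shares 82.1% of its coding sequence, was at 29.1 and 32.0 FPKM (0.13). Over the 8 genes the sum was 336 and 329 FPKM, and the levels spanned a 6.12-fold range in shNC and a 4.52-fold range in shKIAA1429.

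**Figure D3:**
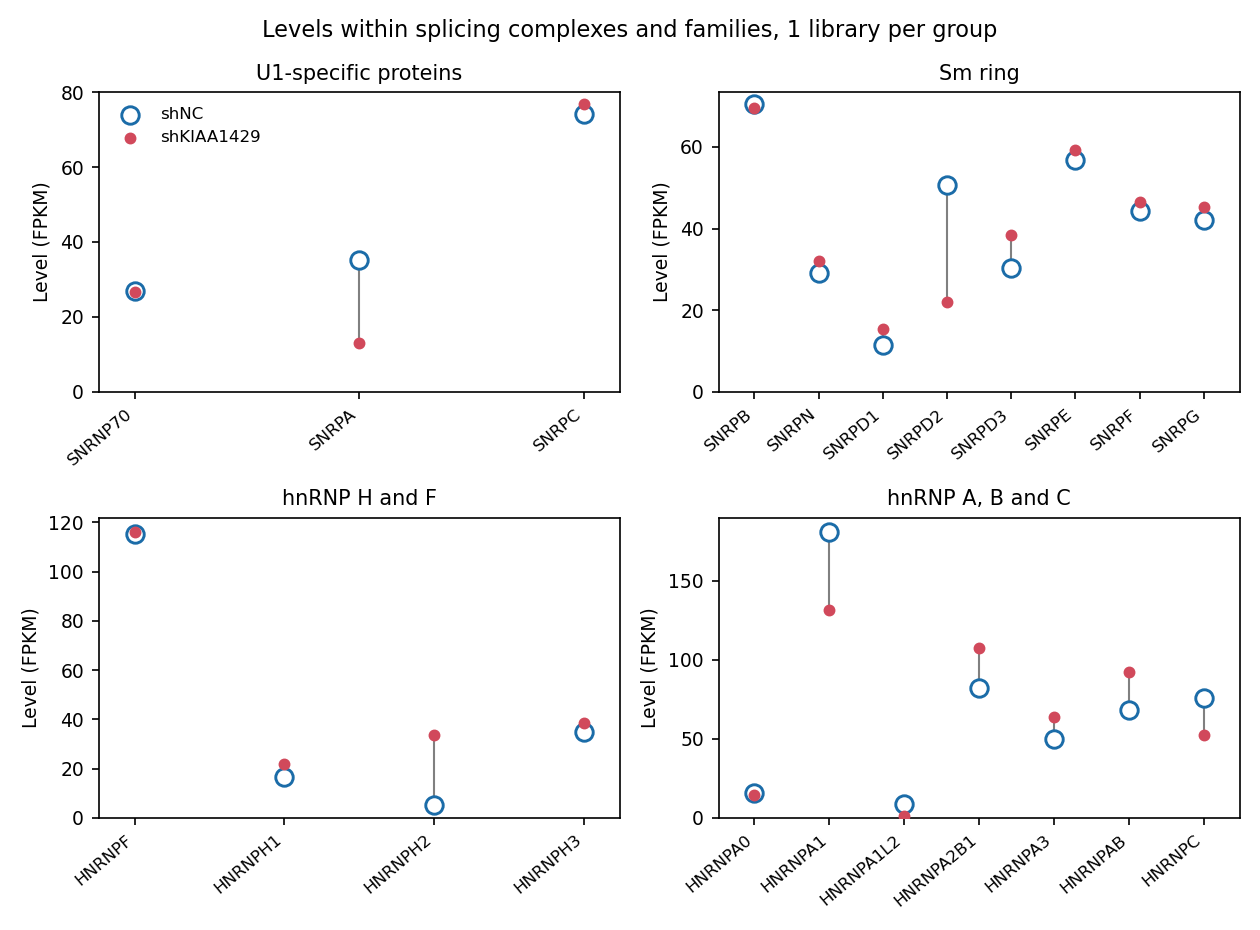
Levels in FPKM (vertical axes, linear from 0) of the U1-specific proteins, the Sm ring, the hnRNP H and F genes, and the hnRNP A, B and C genes in 4 panels, with the shNC library as an open circle and the shKIAA1429 library as a filled point linked to it. SNRPA goes from 35.2 to 12.9 FPKM, SNRPD2 from 50.8 to 22.1 FPKM and HNRNPH2 from 5.31 to 33.5 FPKM, while SNRNP70, SNRPB and HNRNPF are nearly level.

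The U2 snRNP was the most even complex. Its 11 members had a median change of 0.07 and an interquartile range of 0.06. SF3B1, the large subunit that clamps the branch site and is recurrently mutated in blood cancers and uveal melanoma, was the exception at 30.4 FPKM in shNC and 42.2 FPKM in shKIAA1429 (0.46). Its partner SF3B3 was the lowest at 25.5 and 22.3 FPKM (−0.19), so the ratio of SF3B1 to SF3B3 went from 1.19 to 1.89. The small subunits SF3B4, SF3B5 and SF3B6 were the most abundant. They were at 79.6 and 87.2 FPKM (0.13), 72.5 and 74.9 FPKM (0.05), and 72.4 and 76.5 FPKM (0.08).

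The rest of the U2 group lay between −0.08 and 0.13. SF3B2 was at 17.2 FPKM in shNC and 18.8 FPKM in shKIAA1429 (0.13). The SF3A trimer, which joins SF3B to the U2 particle, was level, with SF3A1 at 21.6 and 22.8 FPKM (0.07), SF3A2 at 27.6 and 26.1 FPKM (−0.08), and SF3A3 at 18.5 and 19.1 FPKM (0.05). SNRPA1 and SNRPB2 encode the A′ and B″ proteins of the U2 particle, and were at 8.35 and 8.94 FPKM (0.09) and at 24.1 and 24.9 FPKM (0.04). SNRPB2 is a paralogue of SNRPA and did not share its lower level.

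The U2AF heterodimer reads the 3′ splice site. U2AF2, the large subunit, which binds the polypyrimidine tract, was at 35.0 FPKM in shNC and 41.7 FPKM in shKIAA1429 (0.24). U2AF1, the small subunit, which binds the terminal AG, was at 4.66 and 5.13 FPKM (0.12). U2AF1L5 is listed at the same GRCh37 position as U2AF1, and at 0.804 and 0.468 FPKM it was the member that did not pass the filter. The sum of both was 5.46 and 5.599 FPKM. The related U2AF1L4 was at 2.85 and 2.504 FPKM (−0.14).

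Among tri-snRNP genes, those grouped outside the U5 particle had a higher median than those of U5. The U4/U6 and tri-snRNP group had a median of 0.29, with 6 of 7 higher (85.7%, against 57.3% of all genes). Its summed level was 66.8 FPKM in shNC and 83.2 FPKM in shKIAA1429. PRPF38B, a relative of the activation factor PRPF38A, had the highest change at 5.43 and 9.63 FPKM (0.73). PRPF4B, the kinase that phosphorylates tri-snRNP proteins, was at 9.01 and 13.8 FPKM (0.57). PRPF3 and PRPF4, which form a U4/U6 subcomplex, were at 9.57 and 13.4 FPKM (0.45) and at 8.44 and 10.5 FPKM (0.29). PRPF38A was at 4.83 and 6.11 FPKM (0.28).

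PRPF31, which binds the U4 RNA and is a retinitis pigmentosa gene, was level at 19.1 FPKM in shNC and 19.4 FPKM in shKIAA1429 (0.02), as was SNRNP27 at 10.3 FPKM in both. The U5 group had a median of −0.09 (0.09 after rescaling to equal sums, beside 0.50 for the U4/U6 and tri-snRNP group). Of its genes 1 of 4 was higher (25%, against 57.3% of all genes), and their sum was 95.9 and 89.9 FPKM. PRPF8, the scaffold of the catalytic core and the most abundant PRPF gene, was at 40.4 and 38.6 FPKM (−0.06). SNRNP200, the helicase that unwinds U4 from U6, was at 27.6 and 25.6 FPKM (−0.11). After rescaling to equal sums both were above 0, at 0.12 and 0.07. With mitochondrial genes left out of the sum they were at −0.06 and −0.11. PRPF6, which bridges U5 and U4/U6, was at 19.1 and 15.7 FPKM (−0.27), and SNRNP40 was at 8.75 and 9.998 FPKM (0.17).

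PRPF19, the ubiquitin ligase that leads the Prp19 complex, was at 27.9 FPKM in shNC and 24.5 FPKM in shKIAA1429 (−0.18), and PRPF18, a factor of the second catalytic step, at 5.81 and 8.02 FPKM (0.41). The minor spliceosome removes a rare class of introns, and its 3 members were all low. SNRNP25 was at 3.24 and 2.47 FPKM (−0.29), SNRNP35 at 3.30 and 3.80 FPKM (0.16), and SNRNP48 at 3.09 and 4.59 FPKM (0.45). By these values they were not uniform in direction. SNRNP25 and SNRNP35 overlap POLR3K and RILPL1 on the opposite strand, and whether reads were counted by strand is not given. Summed with these neighbours, SNRNP25 was at 0.31 and SNRNP35 at −0.03, each opposite in sign to its own change.

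Base composition varied with these differences, and its part in them was not tested. GC content was taken from the longest coding GENCODE 29 transcript, which matched all 76 members and 99.5% of all genes. Across the 76 members the Spearman correlation of change with GC content was −0.39, and across 10644 genes it was −0.30, where all points come from the same 2 libraries and genes are not independent replicates. The 38 members with the lower GC content had a median change of 0.18 with 30 higher, and the 38 with the higher GC content had a median of 0.0018 with 19 higher. All genes on the same sides of that dividing GC content had medians of 0.17 and −0.02, with 3160 of 4434 and 2930 of 6210 higher.

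The families differ in this property. The median GC content was 41.2% for SR genes, 42.3% for hnRNP genes and 48.5% for PRPF genes. The trend of all genes with GC content and length was also removed, a setting added after the data were seen. The median of the SR genes then went from 0.24 to 0.05 and that of the PRPF genes from 0.28 to 0.04. In this setting 10 of the 11 SR genes were still higher (90.9%, against 49.7% of all genes). The median of the U4/U6 and tri-snRNP group, which holds several PRPF genes, was 0.30, with 5 of 7 higher. HNRNPH2, HNRNPA1L2, SNRPA and SNRPD2 changed little with the trend removed, to 2.27, −2.03, −1.34 and −1.08.

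**Figure D4:**
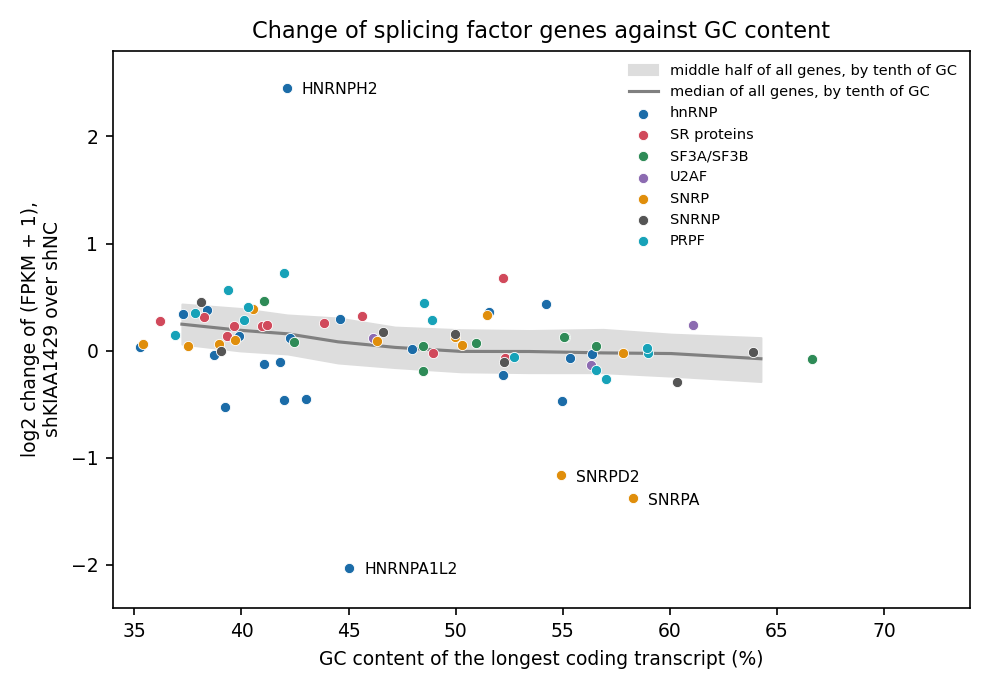
Log2 change of (FPKM + 1) in shKIAA1429 over shNC (vertical axis) against the GC content of the longest coding transcript in percent (horizontal axis) for the 76 members, coloured by family, with a line and band for the median and the middle 50% of all genes in 10 equal classes of GC content. The line falls from 0.25 at a GC content of 37.2% to −0.08 at 64.2%, and HNRNPH2, HNRNPA1L2, SNRPA and SNRPD2 lie far from it.

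GGACT is a frequent form of the sequence in which m6A is written, and it was counted on the transcript strand only. Members held a median of 0.932 copies per kilobase, beside 0.927 for all genes with a transcript. HNRNPH2 held 0.90 per kilobase, HNRNPA1L2 1.46 and SNRPD2 2.22, while the SNRPA transcript held 0. The Spearman correlation of change with this density was −0.31 across the members and −0.10 across all genes. The letters alone do not mark a methylated site, and no m6A measurement was used here.

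The splicing genes outside these name families were examined as 7 lists of 146 symbols, with SNU13 also under its older name NHP2L1. They gave 141 genes that were listed and passed the filter. Of these, 86 were higher (61.0%, against 57.3% of all genes) and 55 lower, with a median of 0.09, close to the 0.08 of the members. None lay past 1.5 in either direction (0 of 141, against 0.383% of all genes above and 0.252% below), and 9 were higher and 6 lower by more than 0.5, against 9.9% and 6.12% of all genes. CLK1, a kinase that phosphorylates SR proteins, was the one past 1, at 4.28 FPKM in shNC and 11.8 FPKM in shKIAA1429 (1.27, or 1.58 after rescaling to equal sums). In the same list DYRK1A, another kinase of splicing factors, was the lowest at 2.88 and 1.06 FPKM (−0.91). The 17 SR-related proteins and kinases had a median of 0.06, beside the 0.24 of the SR proteins themselves.

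The Sm and Sm-like rings are covered by a pair of these lists. LSM4, a subunit of the Sm-like ring carried by U6, was at 28.1 FPKM in shNC and 14.1 FPKM in shKIAA1429 (−0.95), the lowest of all 141, while the 18 genes of its list had a median of −0.01. The highest of that list was WBP4, a factor of the spliceosome before its activation, at 7.85 and 13.1 FPKM (0.68). The 17 genes listed under Sm core assembly, not all of which load Sm proteins onto RNA, had a median of −0.02. Of these, 7 were higher (41.2%, against 57.3% of all genes). Their extremes were DDX20, a helicase of the SMN complex, at 3.58 and 2.10 FPKM (−0.56), and TGS1, which modifies the cap of snRNAs, at 7.61 and 11.5 FPKM (0.54).

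Of all genes, 57.3% were higher, or 74.6% after rescaling to equal sums, and the counts of the next 3 lists stand beside that. The other U2 and branch site factors were higher in 11 of 13 genes (median 0.20), from RBM10 (−0.22) to the helicase DDX46 (0.64). The U1-associated and exon junction proteins were higher in 14 of 16 genes (median 0.21), from EIF4A3 (−0.08, or 0.10 after rescaling to equal sums) to LUC7L (0.52). The Prp19 and catalytic step factors were higher in 18 of 25 genes (median 0.18), from ISY1 (−0.84) to SLU7 (0.59). The other RNA-binding splicing regulators had a median of −0.01 over 35 genes. Like the medians of the LSM and Sm assembly lists, it was above 0 after rescaling to equal sums. With mitochondrial genes left out of the sum, these medians stayed below 0. Among the 35 regulators RBMX, also known as hnRNP G, was the lowest at 31.4 and 18.3 FPKM (−0.75). MATR3 was the highest by the more abundant of its 2 entries, at 6.04 and 10.9 FPKM (0.75). With both entries summed it was at 0.42, below MBNL2 (0.69) and MBNL1 (0.49), genes named after their values were seen.

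**Figure D5:**
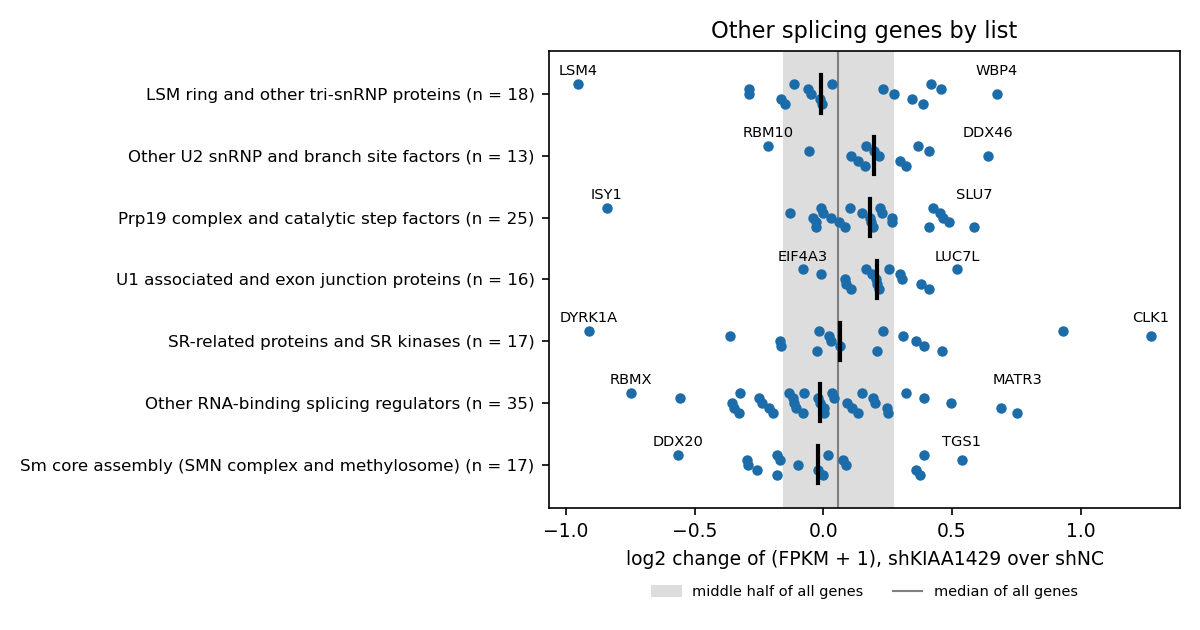
Log2 change of (FPKM + 1) in shKIAA1429 over shNC (horizontal axis) for 141 splicing genes outside the name families in 7 lists, with 1 point per gene, a black bar at each list's median, and a grey band and line for the middle 50% and the median of all genes. The highest and lowest gene of each list is named, from CLK1 at 1.27 to LSM4 at −0.95.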

How the data were processed

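RNA of 1 shKIAA1429 and 1 shNC library of ACHN cells was sequenced as paired reads of 150 bases from strand-marked (dUTP) libraries. The authors deposited FPKM values per gene. The submitters' processing notes name cutadapt 1.9, HISAT2 2.0.4, StringTie 1.3.4d, DESeq2 and edgeR. The strand setting of counting and how reads of copies were shared are not given in the sources used here. Of the members, 20 overlap a listed gene on the opposite strand and 9 overlap one on the same strand, so their levels may hold reads of a neighbour. The file lists 12014 entries, each above 0.5 FPKM in at least 1 library, and its lifted GENCODE identifiers and positions are those of GRCh37. Of 7 symbols on more than 1 entry, the entry with the highest mean was used.

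The log2 of (FPKM + 1) in shKIAA1429 over (FPKM + 1) in shNC was computed for genes with a mean of at least 1 FPKM, with limits of 1.5, 1 and 0.5. No test was run. Other scalings, a pseudocount of 0.1, other filters, summed entries and read-through genes, and a limit of 1 were tried, and removal of the trend with GC content and length was added after the data were seen. Transcripts, GC content, overlaps and sequences came from GENCODE 29 (GRCh38), matched by gene identifier, and pairs of coding sequences were aligned with Biopython 1.88. The scripts used Python 3.11.15, pandas 2.3.3, NumPy 2.4.6 and SciPy 1.17.1, and were tested on simulated data.

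The members and lists were chosen with earlier results of these data known. Genes were named by these rules: members past 1.5, the highest, lowest and 2 most abundant of each family, the near copies, HNRNPA2B1 and HNRNPC, the highest and lowest of each other list, and VIRMA. Other members are given with their complex, except 1 that is not reported here.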

Additional observations from a re-analysis of the deposited data

How the results depend on the processing

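No paired analysis was possible because each condition has 1 library, and for the same reason no library could be left out. After rescaling to equal sums, 17 members were higher by more than 0.5, and the medians were 0.27 for the members and 0.27 for the other splicing genes. With mitochondrial genes left out of the sum, 5 members were higher by more than 0.5, and these medians were 0.09 and 0.11. Centring gave 7 members lower by more than 0.5. The shares of all genes past 0.5 were not computed on these scales, so the counts describe the scaling and nothing particular to the members. With a mean of at least 5 FPKM, 0 members were lower by more than 1.5, since HNRNPA1L2 was left out, and with a limit of 1 there were 3. Of 49 named genes, 2 changed sign with centring (HNRNPF and SNRPC) and 6 with rescaling (EIF4A3, PRPF8, SNRNP200, SNRNP70, SNRPB and SRSF9), as did 4 with the GC and length trend removed (HNRNPF, SNRNP70, SNRPB and SRSF9). With mitochondrial genes left out of the rescaled sum, 0 changed sign. HNRNPH2 ranged from 1.93 to 2.78, HNRNPA1L2 from −2.59 to −2.03, SNRPA from −1.44 to −1.25 and SNRPD2 from −1.22 to −1.01. Without read counts, the precision of low members cannot be given.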
